A study of Mus musculus with 12 samples.

Results

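Of the 1088 Stat3 ChIP-seq summits listed for LIF-stimulated MEFs, 304 lay in intergenic sequence (27.9%, exact 95% interval 25.3 to 30.7%). A summit is the base of a read peak at which coverage was highest. The 304 members were those outside every gene body in the GENCODE M21 annotation of mm10 and outside the region from 5 kb upstream to 0.5 kb downstream of every annotated transcriptional start site (TSS). Another 421 LIF summits were in such promoter regions, 344 in introns and 19 in exons. Intergenic sequence by the same rule made up 48.0% of the sequenced genome, introns 34.5% and promoter regions 14.6%. RefSeq annotates more transcripts than GENCODE in some of these regions. It placed 67 of the 304 members within a gene body or promoter region, of which 23 were in a promoter region, and left 237 in sequence that neither annotation assigns to a gene.

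The 5 lists of the series held 2136 summits in all. They came from immortalised Stat3 fl/fl mouse embryonic fibroblasts (MEFs) in which Stat3 was deleted with Cre and re-expressed from a retrovirus as wild-type Stat3 (-/-WT) or as Stat3-C3S, a redox-insensitive mutant (-/-C3S). Both were polyclonal lines sorted for GFP, and all cells were kept overnight in 0.5% serum before treatment. The LIF list is from -/-WT MEFs given 10 ng/ml LIF for 45 min, and the other 4 lists are from -/-WT and -/-C3S MEFs that were untreated (basal) or given hydrogen peroxide for 1 h, at a dose that the sample labels give in mM and the methods in µM. Each list pools 2 ChIP replicates. No value below therefore has a replicate error, and read depth is not in the lists. Every p-value given is for a comparison between regions of the LIF list, not between conditions. Intervals are exact 95% intervals and cover counting error only.

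Stat3 is a latent transcription factor that receptors of the IL-6 family, including the LIF receptor, activate through Jak kinases. Tyrosine-phosphorylated Stat3 dimers bind a palindrome known as the sis-inducible element (SIE), and Fos and Jun dimers bind the AP-1 motif that often lies near it. Much of the binding of signal-dependent factors is in enhancers, which can lie in introns or far from any gene and can act on genes other than the nearest one. The lists record where Stat3 was precipitated, not which gene a site acts on, and genes are named below only as neighbours.

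The consensus SIE was searched as TTCCNGGAA and AP-1 as TGANTCA, on both strands, in the 161 bases centred on each summit. Windows from mm10, plus strand, are given for 5 members that held a consensus SIE, to show its place in the window alone or, in 3 of them, with AP-1 sites. Capitals mark the consensus SIE and any AP-1 site.
Cebpb to Ptpn1, chr2:167765254-167765414: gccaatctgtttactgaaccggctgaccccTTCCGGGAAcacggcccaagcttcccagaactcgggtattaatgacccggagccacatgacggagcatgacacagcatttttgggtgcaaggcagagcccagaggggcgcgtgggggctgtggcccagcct
Atp23 to Ctdsp2, chr10:126931446-126931606: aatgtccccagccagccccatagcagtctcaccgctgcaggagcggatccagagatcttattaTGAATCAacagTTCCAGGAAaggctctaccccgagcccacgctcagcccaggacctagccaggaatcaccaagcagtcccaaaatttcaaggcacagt
Helt to Acsl1, chr8:46429916-46430076: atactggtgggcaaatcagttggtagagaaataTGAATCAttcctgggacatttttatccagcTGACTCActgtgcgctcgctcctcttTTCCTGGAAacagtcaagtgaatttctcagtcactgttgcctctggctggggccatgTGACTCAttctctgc
Cd200r3 to Ccdc80, chr16:45038858-45039018: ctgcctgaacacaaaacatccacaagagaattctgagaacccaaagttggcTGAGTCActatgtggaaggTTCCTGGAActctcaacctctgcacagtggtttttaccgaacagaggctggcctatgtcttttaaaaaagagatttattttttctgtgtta
Mcl1 to Adamtsl4, chr3:95674323-95674483: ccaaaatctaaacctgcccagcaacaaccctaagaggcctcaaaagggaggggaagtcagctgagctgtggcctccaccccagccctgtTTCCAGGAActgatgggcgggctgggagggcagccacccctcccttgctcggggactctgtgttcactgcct

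In 4 further members the window held no consensus SIE, and capitals mark sites that differ from it by 1 base. They are shown because most members were of this kind, and because they flank Jak1, the matrix genes Dcn and Lum, the receptor genes Osmr and Lifr, and Socs3.
Jak1 to Ak4, chr4:101292145-101292305: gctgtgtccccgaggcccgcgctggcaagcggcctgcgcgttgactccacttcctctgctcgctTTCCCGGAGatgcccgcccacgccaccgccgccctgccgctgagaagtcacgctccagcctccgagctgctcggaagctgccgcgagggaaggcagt
Dcn to Lum, chr10:97553164-97553324: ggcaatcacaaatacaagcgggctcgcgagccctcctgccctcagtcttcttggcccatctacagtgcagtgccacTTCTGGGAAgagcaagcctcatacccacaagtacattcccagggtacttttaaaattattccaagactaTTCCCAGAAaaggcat
Osmr to Lifr, chr15:6912698-6912858: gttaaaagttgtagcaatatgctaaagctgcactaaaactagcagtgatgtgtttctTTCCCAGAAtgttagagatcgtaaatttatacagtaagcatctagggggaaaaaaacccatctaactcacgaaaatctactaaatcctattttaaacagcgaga
Tha1 to Socs3, chr11:117949434-117949594: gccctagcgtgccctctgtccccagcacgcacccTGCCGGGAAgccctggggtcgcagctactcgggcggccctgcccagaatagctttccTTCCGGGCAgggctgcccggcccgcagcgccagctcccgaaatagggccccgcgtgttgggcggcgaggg

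Among the 10 members with the highest scores, 3 held neither an SIE with up to 1 mismatch nor an AP-1 site, and 2 of these are given for contrast.
Klf10 to Azin1, chr15:38470464-38470624: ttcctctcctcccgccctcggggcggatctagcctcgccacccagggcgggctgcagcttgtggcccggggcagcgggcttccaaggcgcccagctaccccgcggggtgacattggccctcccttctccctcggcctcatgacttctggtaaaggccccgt
Midn to Cirbp, chr10:80158560-80158720: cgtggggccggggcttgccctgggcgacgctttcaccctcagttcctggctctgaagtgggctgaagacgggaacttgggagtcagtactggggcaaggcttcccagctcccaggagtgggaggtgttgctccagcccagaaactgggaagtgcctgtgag

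A consensus SIE lay within 80 bp of 47 of the 304 members (15.5%, 11.6 to 20.02%), compared with 15.3% of all LIF summits. By contrast, only 0.388% of 7893805 adjoining windows of the same length across intergenic sequence held one, or 0.526% of the 1629513 such windows without a repeat-masked base. The share was 12.8% at intronic and 16.9% at promoter summits. The members differed from neither class beyond counting error (2-sided Fisher's exact tests, adjusted p = 0.598 with an odds ratio of 1.25, 0.780 to 1.99, and adjusted p = 0.879 with an odds ratio of 0.902, 0.589 to 1.37). The p-values were adjusted by the Benjamini-Hochberg method over 18 comparisons, of 9 motifs with each of the 2 classes.

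Members with and without a consensus SIE were compared by their scores. The score is the number the authors deposited with each summit, and ranks peaks within a list. Its median was 11.3 in the 47 members with an SIE and 8.54 in the other 257, a difference of 0.42 in mean log2 score that did not pass the adjustment (2-sided permutation test, p = 0.00969, adjusted p = 0.0581 over 6 tests). The scores overlapped widely, as the SD of log2 score was 1.07 with and 1.00 without an SIE. The difference passed when 1 mismatch was allowed in the SIE (0.41 in mean log2 score, permutation test, adjusted p = 0.00594) and when only protein-coding genes set the class (0.42, adjusted p = 0.00846).

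With 1 mismatch allowed, an SIE was present at 205 members (67.4%), against 66.6% of all LIF summits and 8.08% of the intergenic windows. Among the 50 consensus sites in members, 40 had A or T at the central base and 10 had C or G. Of the 158 members with only mismatched sites, 45 had TTCCCAGAA or its reverse complement TTCTGGGAA as the site nearest the summit. Among these were the summits shown above upstream of Lum and between Osmr and Lifr. The next most frequent form, TGCCAGGAA or TTCCTGGCA, was the nearest site in 13. The shorter Stat core TTCNNNGAA, which includes every consensus SIE, was in 131 members (43.1%) and in 6.47% of the intergenic windows.

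The sites were near the summits. The centre of the nearest consensus SIE was a median of 17 bp from the summit (quartiles 9.50 and 27.5 bp) and lay within 20 bp of it in 27 of 47 members (57.4%). Sites with up to 1 mismatch were at a median of 20 bp. AP-1 sites lay farther out, with a median of 30 bp, and 24 of the 75 members with an AP-1 site had it within 20 bp (32.0%). These distances are given as a description, with no test.

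**Figure D1:**
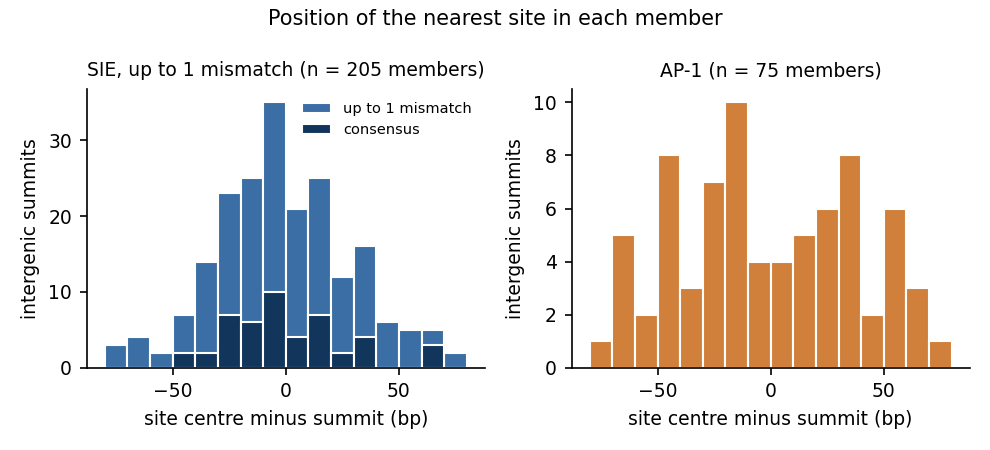
The horizontal axis gives the distance in bp from a member's summit to the centre of the nearest site, and bars count intergenic LIF summits. SIE sites with up to 1 mismatch (205 members, consensus sites in the dark bars) gathered around the summit, whereas AP-1 sites (75 members) were spread over the window.

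AP-1 was present at 75 members (24.7%, 19.9 to 29.9%), with 23.2% of all LIF summits and 4.80% of the intergenic windows holding one. The share was higher than the 15.7% of promoter summits (odds ratio 1.76, 1.20 to 2.60, 2-sided Fisher's exact test, adjusted p = 0.0459). It was not distinguishable from the 31.4% of intronic summits (odds ratio 0.716, 0.498 to 1.03, Fisher's exact test, adjusted p = 0.273). Base composition moved with the first difference: mean GC content within 80 bp was 48.4% ± 8.87 (SD, n = 304) at members, 47.2% ± 8.33 (n = 344) at intronic and 56.9% ± 10.7 (n = 421) at promoter summits. Its part in the result was not tested. In the higher-scoring part of the list the odds ratio was 2.04 with an adjusted p of 0.156.

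No association of consensus SIE and AP-1 sites within a window was detectable at this number of members. Both were in 11 members, a consensus SIE alone in 36, AP-1 alone in 64 and neither in 193 (odds ratio 0.921, 0.399 to 1.99, 2-sided Fisher's exact test, p = 1). In the 11 members with both, the centres were between 12 and 64 bp apart, with a median of 33 bp. The member 30.2 kb upstream of Atp23 was one of them, and the member 41.0 kb upstream of Acsl1, which encodes a long-chain acyl-CoA synthetase, held an SIE and 3 AP-1 sites. Members with and without AP-1 differed by -0.10 in mean log2 score (permutation test, p = 0.473, adjusted p = 0.596). With up to 1 mismatch in the SIE, 41 members held both motifs, 164 the SIE alone, 34 AP-1 alone and 65 (21.4%) neither. By these counts AP-1 was less frequent at members with such an SIE than at those without. That difference was not tested.

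Of the other 7 motifs, the E-box CACGTG, bound by basic helix-loop-helix factors, was less frequent at members (7, 2.30%) than at promoter summits (6.89%, 2-sided Fisher's exact test, adjusted p = 0.0459), and was in 1.31% of intergenic windows. This motif contains a CpG, of which windows held a mean of 3.09 at members and 8.11 at promoter summits. The part of base composition in this difference was not tested. The Runx motif TGTGGT was at 15.5% of members, 10.7% of intergenic windows and 9.26% of promoter summits. Its difference between members and promoter summits did not pass (Fisher's exact test, adjusted p = 0.085). The Tead motif GGAATG was at 16.4% of members and 8.94% of intergenic windows, and the C/EBP core TTGCNNAA at 6.91% and 8.03%. The motif AGGNNNAGG was at 16.1% of members and 11.7% of intergenic windows. The CRE TGACGTCA, bound by Creb and Atf factors, was found at 0 of 304 members and at 5 promoter summits. The 0 allows a share of up to 0.987% by a limit of 3 counts and has an exact upper bound of 1.21%. Only 0.071% of intergenic windows held a CRE, a share from which 0 of 304 cannot be told apart.

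**Figure D2:**
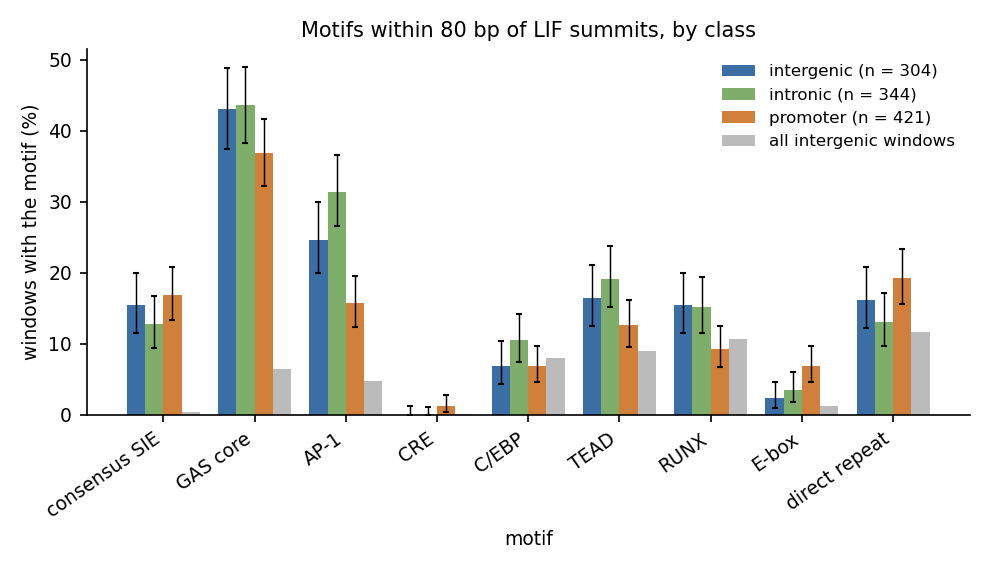
Bars give the percentage of windows of 161 bases that hold each motif, for intergenic, intronic and promoter LIF summits with exact 95% intervals, and in grey for all intergenic windows of the genome. At members the consensus SIE (15.5% against 0.388%), the Stat core (43.1% against 6.47%) and AP-1 (24.7% against 4.80%) stood farthest above the genome.

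The members lay nearer to protein-coding genes than intergenic sequence in general. The median distance to the nearest protein-coding TSS was 54.5 kb (quartiles 21.9 and 131 kb, range 2.02 to 1215 kb), compared with 131 kb (37.5 and 362 kb) for 1270919 intergenic positions taken every kb. Within 10 kb were 45 members (14.8%), and 6.34% of the positions. Between 10 and 50 kb were 102 members (33.6%, against 23.8%), between 50 and 100 kb 61 (20.1%, against 13.8%) and between 100 and 200 kb 49 (16.1%, against 16.1%). Beyond 200 kb were 47 members (15.5%), and 39.9% of the positions. When the TSS of any annotated gene was counted, the median was 22.5 kb. The rule itself keeps out positions within 5 kb upstream of a TSS, for members and positions alike. The positions were not matched to members for repeats, base composition or chromosome, and the part of these in the difference was not tested.

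**Figure D3:**
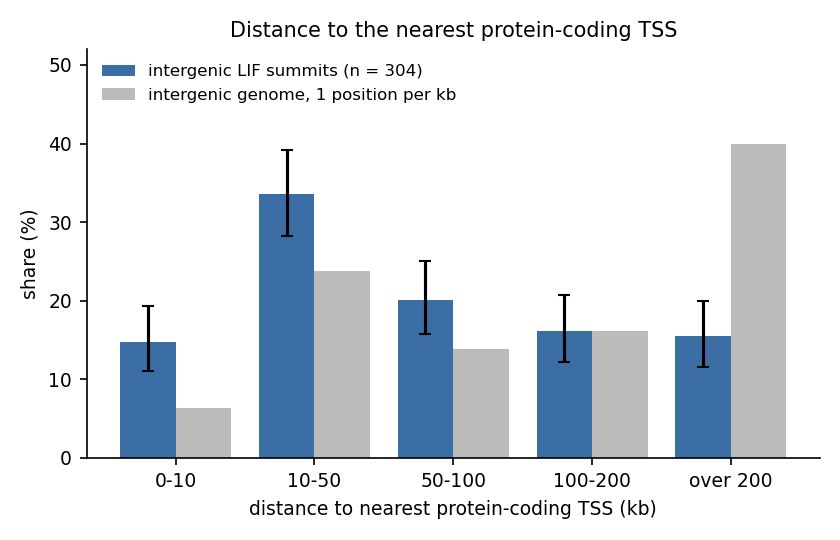
The horizontal axis bins the distance to the nearest protein-coding TSS in kb, and the bars give the share of the 304 members, with exact 95% intervals, and of intergenic positions taken every kb. Members exceeded the genome in the 3 bins below 100 kb and fell below it beyond 200 kb (15.5% against 39.9%).

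The nearest TSS lay downstream of 172 members, which were thus on the 5′ side of that gene, while 132 were on its 3′ side. Near the limit of the rule, 9 members lay 5 to 6 kb upstream of a TSS, with scores from 3.28 to 18.3 (median 10.4). On the other side of it, 32 promoter summits were 4 to 5 kb upstream of the TSS that placed them there, with scores from 1.99 to 47.4 (median 7.55).

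Motif content did not follow distance in any clear order. A consensus SIE was present at 6 of 45 members within 10 kb of a protein-coding TSS (13.3%, 5.05 to 26.8%), at 19 of 102 between 10 and 50 kb (18.6%, 11.6 to 27.6%) and at 7 of 47 beyond 200 kb (14.9%, 6.20 to 28.3%). Median scores were 11.2 within 10 kb and 7.51 beyond 200 kb. Across the 304 members, Spearman's rho of score and distance was -0.10, a description over peaks that share their libraries.

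**Figure D4:**
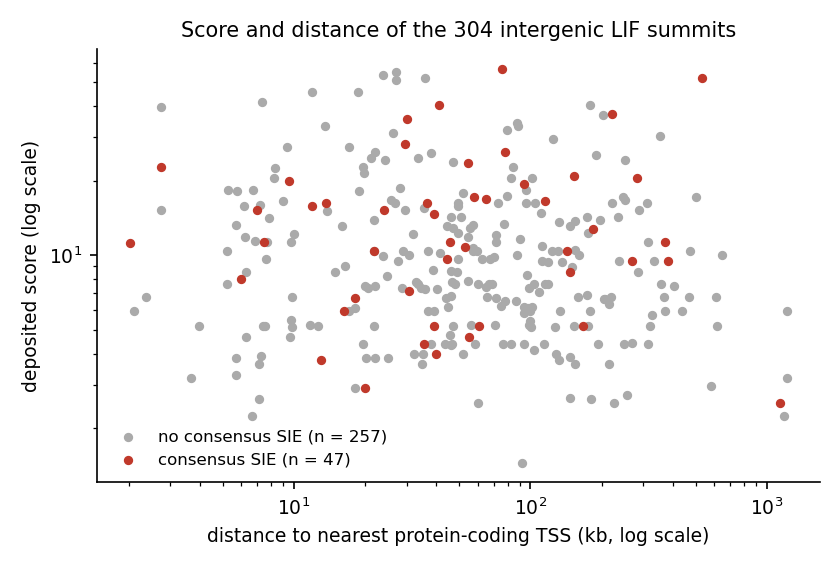
Each point is 1 of the 304 members, by distance to the nearest protein-coding TSS in kb and by deposited score, both on log scales, with the 47 members that hold a consensus SIE in red. Scores above 30 occurred from 2.75 to 529 kb from a TSS.

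The scores of intergenic peaks could not be told apart from those of intronic or promoter peaks. Their median score was 9.44, in a range of 1.45 to 56.6 (quartiles 5.79 and 15.6). The median was 8.74 at intronic and 10.4 at promoter summits. The mean log2 score of members was 0.05 above that of intronic summits (2-sided permutation test, p = 0.496, adjusted p = 0.596) and 0.15 below that of promoter summits (-0.15, p = 0.0608, adjusted p = 0.122). Members made up 31 of the 109 summits in the top 10% of the list by score (28.4%), 16 of the top 50 and 2 of the top 10. Of the top 10, 6 were promoter and 2 were intronic summits.

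The 10 highest-scoring members ranked between 9 and 32 in the list. First was a summit at 167765334 on chromosome 2 (score 56.6, rank 9), in the 242 kb between Cebpb, which encodes the transcription factor C/EBPβ, and Ptpn1, which encodes a tyrosine phosphatase that acts on Jak kinases. The nearest protein-coding TSS was that of Tmem189, 75.5 kb away, and the nearest of any gene was at 12.1 kb. Second was a summit at 101292225 on chromosome 4 (score 55.2, rank 10), 26.9 kb upstream of Jak1, the kinase that transmits signals from IL-6 family receptors. These were the only members among the top 10 of the list.

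The next in score were between Klf10, a Krüppel-like transcription factor gene, and Azin1 (score 53.3), and between Gja1, the gene for the gap junction protein connexin 43, and Hsf2 (score 51.8). The latter was 529 kb from the nearest protein-coding TSS and held a consensus SIE. A summit of the same score, 51.8, lay between Cyb5r3 and A4galt, and one of 51.1 lay 27.0 kb upstream of Atp23. Those ranked 22 and 23 in the list had a score of 45.8 each. One was 11.9 kb upstream of Lum, between the genes of the matrix proteoglycans decorin (Dcn) and lumican. The other was between Creld2 and Pim3, a serine/threonine kinase gene. The last of the 10 were 7.35 kb upstream of Cirbp, a cold-inducible RNA-binding protein gene (score 41.8), and between Efcab1 and Gm21897 (score 40.6). Of these 10 members, 2 held a consensus SIE, 5 held only sites with 1 mismatch and 3 held no SIE of either kind.

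At the other extreme, 5 members lay farthest from a protein-coding TSS. A pair was 1215 and 1178 kb from Cited2, a transcriptional co-regulator gene, with scores of 3.19 and 2.23. The others were nearest to Lrrtm3 (1212 kb, score 5.97), Pcdh20 (1139 kb, score 2.54) and N6amt1 (649 kb, score 10.0). The window of the Pcdh20 member was repeat-masked throughout and had 147 near-identical copies in the genome. The scores of 4 of these 5 were under the median of the members.

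Intergenic LIF peaks were found mostly in sequence with few repeats. On average 10.7% ± 16.4 of the bases within 80 bp were repeat-masked (SD, n = 304), 151 members had no masked base, and only 2 windows were masked throughout. Over all intergenic windows the mean was 43.7%. Intronic LIF summits had 11.0% (permutation test, p = 0.795, adjusted p = 0.795). Promoter summits had 8.21%, and the difference of 2.44 percentage points did not pass the adjustment (permutation test, p = 0.0284, adjusted p = 0.0853).

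Intergenic peaks of the other lists lay almost wholly in repeats. Intergenic summits had a mean masked share of 100% in the -/-WT basal list (n = 161), 99.8% in the -/-WT peroxide list (n = 314), 98.6% in the -/-C3S basal list (n = 97) and 99.96% in the -/-C3S peroxide list (n = 153). Members minus these gave differences of -88.0 to -89.3 percentage points. Each condition is 1 pooled list, so that no p-value is given for these differences. Only 7 members had a near-identical copy elsewhere in the genome, at 95% identity or more over at least 60% of the window, and 297 had none.

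No intergenic LIF summit was found in another list. A summit of any of the other 4 lists lay within 200 bp of 0 of the 304 members, for which the same limits of 0.987% and 1.21% hold, and of 0.46% of all LIF summits. From that share 0 of 304 cannot be told apart. The LIF libraries were sequenced more deeply than the others by the study's account, and the part of depth in this result was not tested. The lists also kept unlike shares of the numbered peaks. The highest peak number was 1124 in the LIF list of 1088 summits. It was 503 in the -/-WT basal list of 230, and 815 in the -/-WT peroxide list of 450. It was 366 in the -/-C3S basal list of 145, and 452 in the -/-C3S peroxide list of 223. Absence from a list therefore need not mean that no peak was called there. The 5 LIF summits found in another list comprised 4 in promoters and 1 in an intron. Within 1 kb, 2 members on chromosome 10, at 3112960 and 3114606, had a -/-C3S basal summit nearby, the nearer at 0.797 kb. They had scores of 3.63 and 5.16, were 100% and 95.7% repeat-masked, and had 21 and 30 near-identical copies. For the other lists the nearest summit to any member was at 20.5 kb (-/-WT basal), 23.8 kb (-/-WT peroxide) and 8.83 kb (-/-C3S peroxide).

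The members were partly grouped. Another LIF summit lay within 10 kb of 55 members (18.1%, 13.9 to 22.9%), compared with 14.7% of all LIF summits, 11.3% of intronic (8.19 to 15.2%) and 14.5% of promoter summits (11.3 to 18.2%). For 47 of the 55 the nearest was itself intergenic, for 7 it was in a promoter and for 1 in an exon. The 55 fell into 28 clusters, in which neighbouring summits were at most 10 kb apart. Of these, 22 held 2 or more members and 3 held 3 or more.

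The largest cluster had 5 members over 23.6 kb upstream of Map4k3, a gene for a kinase of the germinal centre kinase family. Their scores in order along chromosome 17 were 4.38, 13.1, 15.7, 4.38 and 9.61. A cluster over 13.4 kb around Socs3 had 3 members and a promoter summit. The promoter summit had a score of 34.8, and the members had scores of 11.4, 3.84 and 18.1, so that each was below the promoter peak. The third, between Creld2 and Pim3, had a strong member (score 45.8) within 0.586 kb of a weak one (6.74) and a further member of 2.91.

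Over longer stretches, the 304 members occupied 241 intervals bounded by neighbouring protein-coding genes or by a chromosome end. A protein-coding gene lay on both sides of 301 members. Of the intervals, 41 held more than 1 member and 13 held 3 or more. The interval between Map4k3 and Tmem178 held most, with 6. The 216 kb between Osmr and Lifr, the receptor genes for oncostatin M and for LIF itself, held 5, with scores of 25.8, 14.7, 8.31, 6.18 and 2.54. All were nearer to Osmr than to Lifr, at 37.8 to 97.0 kb from the Osmr TSS. The second of them, at 39.0 kb, held a consensus SIE and the strongest did not. A further member (score 3.84) was between Lifr and Egflam.

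Socs3, the feedback inhibitor of Jak-Stat signalling, had 5 members on its 3′ side, in the 92.6 kb up to Tha1. They had scores of 22.6, 11.4, 10.4, 4.78 and 3.84 at 5.66 to 45.7 kb from its TSS. A sixth member lay 5.72 kb upstream (score 18.1). None of the 6 held a consensus SIE, all 6 held a site with 1 mismatch, and 1 held 2 AP-1 sites.

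The interval between Cebpb and Ptpn1 held 4 members with scores of 56.6, 18.3, 16.5 and 7.09. Those of 56.6 and 16.5 held a consensus SIE. The last of the 5 most populated intervals was between 2410131K14Rik and Med13l, a gene for a Mediator kinase module subunit, with 4 members of scores 20.4, 18.3, 8.54 and 6.17. None of these 4 held a consensus SIE.

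**Figure D5:**
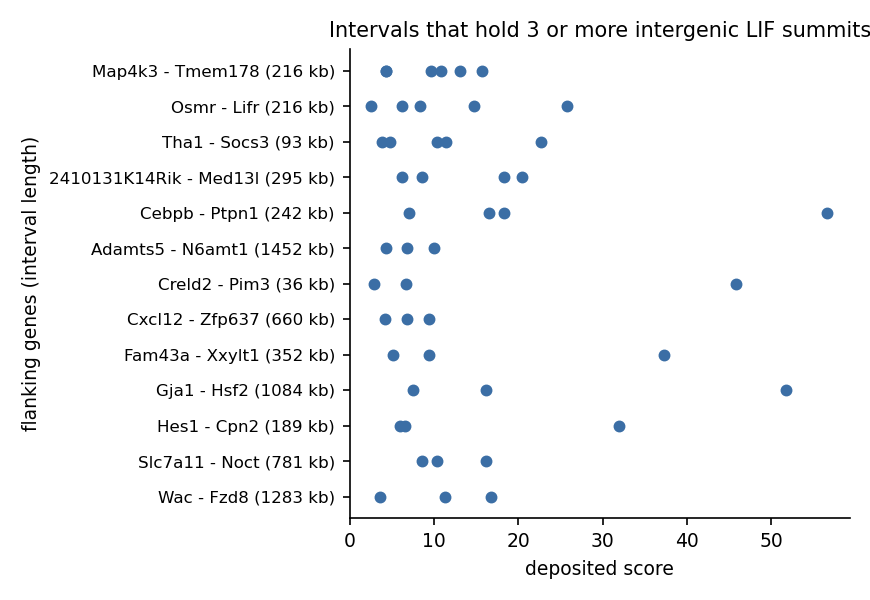
Each point is the deposited score of 1 intergenic LIF summit, in rows for the 13 intervals between neighbouring protein-coding genes that held 3 or more, with the length of the interval in kb. In 5 of the 13 rows the highest score is at least 2 times the next, as between Cebpb and Ptpn1 (56.6 against 18.3 and less) and between Creld2 and Pim3 (45.8 against 6.74 and less).

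Some of the genes next to members had a LIF peak of their own. For 29 members (9.54%) the nearest protein-coding gene also had a LIF summit in a promoter region, as 1.62% of all 21938 protein-coding genes did. Of intergenic positions taken every kb, 1.35% had such a gene as the nearest. These 29 members were shared among 17 genes, with 6 at Socs3, 5 at Osmr, and 2 each at Cited2, Gja1 and Nfkbiz. The gene or its promoter held a LIF summit for 44 members (14.5%), against 3.17% of the intergenic positions. Distance to a promoter peak and peaks of a shared neighbourhood are not independent, and no test was made.

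In all, 471 protein-coding genes (2.15% of them) flanked a member. Of the 113 annotated genes in 8 lists of Stat3-related and fibroblast genes, 23 (20.4%) did so, and for 15 the TSS was the nearest to a member. The lists were chosen with results of these data known, so that the share is a description. In the list of IL-6 family and Jak genes 4 of 15 flanked a member. They were Jak1, Osmr and Lifr, and the cytokine gene Il6, whose TSS was 148 kb from a member of score 5.11. None of the 7 Stat genes did.

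Among 16 feedback genes, 3 flanked a member: Socs3, Ptpn1 and Socs5, for which the member was 62.6 kb from the TSS (score 9.61). Of 12 AP-1 genes, Jun did, with members 251 and 338 kb upstream (scores 24.3 and 5.16, the weaker with a consensus SIE). Of 17 genes of transcription regulators, 4 did. Irf1, the interferon regulatory factor gene, had a member 7.01 kb upstream with a consensus SIE (score 15.2). Cebpb is described above, Klf6 had a member at 327 kb (score 5.74) and Myc one at 858 kb (score 6.67).

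Of 12 survival and growth genes, 4 flanked a member. Mcl1, an anti-apoptotic member of the Bcl2 family, had one 15.6 kb from its TSS with a consensus SIE (score 22.6), which was nearer to Adamtsl4. Ier3, an immediate early gene, had one 8.28 kb upstream with an AP-1 site (score 22.6). Pim1 had one at 92.5 kb (score 13.8). Pim3 had 4, of which the strongest had scores of 45.8 and, 1.95 kb beyond its 3′ end, 39.6.

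Of 17 genes of cytokines, chemokines and acute phase proteins, 2 flanked a member. Cxcl5, a neutrophil-attracting chemokine gene, had one 5.27 kb upstream (score 18.3) in a cluster with 3 promoter summits of 10.4, 7.51 and 14.0, and another at 77.3 kb with an AP-1 site (score 10.2). Cxcl12 had 3, at 104 to 269 kb (scores 4.15, 6.80 and 9.44). Of 17 annotated fibroblast matrix genes, 5 did: Col1a1 (55.1 kb, score 4.68, with a consensus SIE), Col3a1 (69.1 kb, score 7.66), Postn (147 kb, score 13.1), Ccn2 (198 and 199 kb, scores 6.88 and 14.2) and Thbs1 (455 kb, score 4.38).

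Of the genes that the study lists as oxidant-responsive, 187 matched the annotation, and 7 (3.74%) flanked a member, against 2.15% of all protein-coding genes. The difference rests on 7 genes and was not tested. For the genes it assigned to LIF peaks of any class, the paper reports no significant overlap with its oxidant-responsive genes. The 7 were Adgra2, Esrrg, Fat4, Myo16, Syk, Tmem200a and Trps1. Fat4 had 2 members, at 610 and 1560 kb (scores 6.80 and 17.4). The other 6 had 1 each, with scores from 2.63 to 11.6 at 27.7 to 690 kb, and none of these 8 members held a consensus SIE.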

How the data were processed

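Stat3 ChIP-seq summits were taken from 5 lists, 1 per condition. The authors mapped reads to mm10, called peaks on both replicates together and kept those above IgG. The paper states a fold cut-off over IgG for the -/-WT basal and LIF peaks. The submitters' processing notes name HISAT2, Picard and MACS2, with versions not given in the sources used here. The value used was the score deposited by the authors with each summit. MACS2 writes a -log10 p or q there, which of them is not given, and scores were used only within the LIF list. The input and IgG libraries were not analysed here, and the lists hold no depth.

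Summits were assigned with GENCODE M21, in the order promoter, exon, intron, intergenic. Motifs, GC content and repeat-masked (lower case) bases were taken from GRCm38.p6, which shares mm10 coordinates, within 80 bp of summits. Copies were counted with BLAST 2.17.0. Shares were compared with Fisher's exact tests and means with permutation tests (100000 permutations), with Benjamini-Hochberg adjustment and a threshold of 0.05, using Python 3.11.15, NumPy 2.4.6, SciPy 1.17.1 and matplotlib 3.10.9. Motif search, classes and permutation tests were tested on simulated data.

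Members and gene lists were chosen with earlier results of these data known. Named genes are those beside the 10 highest-scoring members, the 5 farthest from a protein-coding TSS, clusters of 3 or more members, the 5 intervals with most members, and listed genes that flank a member. Acsl1, Ccdc80 and Nfkbiz were named after their values were seen. 1 item is not reported here. Alternatives were other widths of windows, counting only protein-coding genes, keeping the higher-scoring part of the list, merged summits and mismatches. One, the RefSeq annotation, was added after the data were seen.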

Additional observations from a re-analysis of the deposited data

How the results depend on the processing

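Of 58 alternatives, 44 left the result on the same side of its threshold, within its interval or, for counts of summits, within 1.5 times its value. The intergenic share of the LIF list (27.9%) was 33.0% with promoters of 1 kb and 20.1% with promoters of 10 kb either side of a TSS, 39.2% with protein-coding genes only, and 21.8% with RefSeq genes and start sites also excluded. The median distance to a protein-coding TSS (54.5 kb) was 75.2 kb with promoters of 10 kb, and 22.5 kb to the TSS of any gene. The odds ratio of the SIE share against promoters (0.902) turned to 1.13 in the higher-scoring part of the list, 1.06 with protein-coding genes only and 1.05 with 1 mismatch, with adjusted p from 0.95 to 0.966. The AP-1 share against promoters kept its direction (odds ratio 2.04, Fisher's exact test, adjusted p = 0.156) but not its call in the higher-scoring part, where fewer summits were compared. Within 50 kb, 92 members had another LIF summit, and within 1 kb, 2 were found in another list. The score difference between members with and without an SIE (0.42) passed with 1 mismatch (0.41) and with protein-coding genes only (0.42), and its adjusted p ranged from 0.00594 to 0.0853 over 3 alternatives. The family of 6 permutation tests was set after the data were seen. Adjusted together with 4 comparisons between lists, 10 in all, the main p of this difference would be 0.0194 and that of the repeat-masked share against promoters 0.0474. Those 4 set members at a mean of 10.7% masked against lists at 98.6 to 100%. They were certain to pass, which lowers the adjusted p of the other 6, and no call rests on this wider family. No paired analysis was possible because each list pools both replicates, and for the same reason no replicate could be left out.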

Other observations

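The members were unevenly spread over the chromosomes. Chromosomes 15, 10 and 3 held 35, 33 and 32 of them, or 100 of 304, whereas chromosome 14 held 1 and chromosomes X and Y none. Per 10 Mb this was 3.36 on chromosome 15, 2.52 on chromosome 10, 0.409 on chromosome 1 and 0.0801 on chromosome 14. The other LIF summits had 5.86, 7.27, 1.23 and 1.28 per 10 Mb on the same chromosomes. The other 4 lists together had 32, 60, 86 and 53 summits there, and 98 on chromosome X.

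Windows with 10 or more CpG dinucleotides were found at 18 members (5.92%), 10 intronic summits (2.91%) and 152 promoter summits (36.1%). These 18 members had a median score of 14.0, and the other 286 one of 8.67. The summits 26.9 kb upstream of Jak1 and between Klf10 and Azin1 were among these 18. The values are a description, with no test.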
